A study of Mus musculus with 10 samples.

Results

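The genes that make, break down and carry out cyclic nucleotide signals were compared between ribosome-bound mRNA of dorsal and ventral mossy cell-enriched populations of the mouse hippocampus. Members were the protein-coding genes whose GRCm38 symbols name adenylyl cyclases, cyclic nucleotide phosphodiesterases (PDEs), regulatory and catalytic subunits of protein kinase A (PKA), soluble guanylyl cyclase subunits and cGMP-dependent kinases (PKG), found by a symbol pattern. The pattern itself used no measured value, but it was chosen with earlier results of these data known. The pattern found 45 genes among the 54838 identifiers of the count tables, and 38 of them passed the expression filter with 16806 genes in all. Its letters also matched Pde4dip, an anchoring protein of the centrosome and Golgi, and Pde6d, a chaperone of prenylated proteins, which are not catalytic PDEs.

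The study isolated mRNA by translating ribosome affinity purification (TRAP), in which an EGFP tag on the ribosomal protein L10a lets ribosomes of the tagged cells be pulled down with their mRNA. All 10 libraries came from male C57BL/6 Drd2-Cre;Eef1a1LSL.eGFPL10a/+ mice of about 10 weeks, with no treatment, and by the labels differed in region alone: 5 Dorsal libraries from the dorsal part of the hippocampus and 5 Ventral libraries from the rest of its length with the ventral subiculum removed. Each library was made from a pool of mice, so the spread between libraries is that between pools. Cre under the Drd2 gene's control tags mossy cells of the hilus and also interneurons and other hippocampal neurons that express Drd2, and no library of unselected hippocampal RNA was analysed here.

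Counts on genes ran from 11138676 to 16779821 in the Dorsal libraries and from 11618625 to 20594364 in the Ventral ones. The share of read pairs outside annotated genes was 21.8 to 33.9% in the Dorsal libraries and 11.6 to 19.3% in the Ventral ones, with no overlap, so this share and the region cannot be told apart by design. All 8 mossy cell markers passed the filter and went both ways, with Gria2, Gria3 and Cyp26b1 called dorsal-enriched and Satb1, Adcyap1 and Calb2 ventral-enriched, and their sum was 1737 to 2012 CPM in the Dorsal libraries and 1806 to 2122 CPM in the Ventral ones. Within that sum Gria2 averaged 1143 CPM in the Dorsal libraries and 651 CPM in the Ventral ones, and Calb2 65.2 and 616 CPM. Of 10 GABAergic interneuron markers 3 were called ventral-enriched and 0 dorsal-enriched, and all 10 had a lower fitted level in Dorsal (median log2 fold change −0.49, Dorsal over Ventral). The sum of these 10 was 3584 to 4613 CPM in the Dorsal libraries and 4420 to 5629 CPM in the Ventral ones, and none of them was at 0. Gad2 alone averaged 2853 CPM in the Dorsal libraries and 3174 CPM in the Ventral ones. Of 6 granule cell markers 1 was called in each direction, and of 6 for CA1 and CA3 pyramidal cells 1 was called dorsal-enriched and 0 ventral-enriched. Of 6 oligodendrocyte markers 3 were called dorsal-enriched, with a sum of 2199 to 2574 against 792 to 1453 CPM. Among the 6 for astrocytes, 3 were dorsal-enriched by call and 1 was ventral-enriched (278 to 362 against 241 to 393 CPM), and of 6 microglial markers 1 was dorsal-enriched (21.3 to 27.1 against 15.0 to 27.0 CPM). Mitochondrially encoded mRNA was at 2773 to 3524 against 447 to 1257 CPM. Their part in the differences given here was not tested. In such bulk libraries, fewer cells of a type and less RNA per cell cannot be told apart.

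Cyclic AMP is made from ATP by adenylyl cyclases, most of which sit in the membrane and answer to G proteins, calcium or both. It activates PKA, a complex in which regulatory subunits hold catalytic subunits inactive until cAMP binds, and PDEs end the signal by hydrolysing cAMP, cGMP or both. Nitric oxide raises cGMP through soluble guanylyl cyclase, a dimer of an alpha and a beta subunit, and cGMP acts on PKG. The dopamine D2 receptor, whose gene directs Cre here, inhibits adenylyl cyclase through Gi, and the synapse of mossy cells onto granule cells is known for a presynaptic, PKA-dependent form of potentiation.

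A promoter with the cAMP response element binds CREB-family factors. The promoter table of RefSeq (GRCm38.p6) holds 300 bases around each start, of which the 250 before the start were searched. The search was for the full element TGACGTCA and for its shorter form, TGACG or CGTCA on the other strand, which lies within the full element. Windows were present for 36 of the 45 members. The full element was in 1 of 76 member windows (1.32%) and in 1.55% of all windows in the table, and the shorter form was in 14 member windows (18.4%) against 17.8% of all. The 250 bases before the start are shown for Adcy1 and Pde1a, the cyclase and PDE most abundant per length among members past the filter. They are also shown for a called cAMP-selective PDE and PKA subunit (Pde8a and Prkacb), and for Prkar1a, which alone held the full element. Capitals mark the matches. Pde1a, Prkacb and Prkar1a have other windows as well, and the window shown for each was picked because it held a match.
Adcy1 chr11:7063183-7063432: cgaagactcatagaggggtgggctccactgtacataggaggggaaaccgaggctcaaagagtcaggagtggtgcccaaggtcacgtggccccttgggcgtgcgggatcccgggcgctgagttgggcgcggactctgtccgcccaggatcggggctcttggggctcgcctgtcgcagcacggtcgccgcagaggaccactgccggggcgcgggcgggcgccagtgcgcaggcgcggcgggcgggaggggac
Pde1a chr2:80038903-80039152: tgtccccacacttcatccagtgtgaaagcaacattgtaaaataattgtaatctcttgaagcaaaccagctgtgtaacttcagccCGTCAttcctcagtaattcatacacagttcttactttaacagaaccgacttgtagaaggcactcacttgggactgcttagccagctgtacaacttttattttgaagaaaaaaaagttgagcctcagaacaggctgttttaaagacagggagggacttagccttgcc
Pde8a chr7:81213015-81213264: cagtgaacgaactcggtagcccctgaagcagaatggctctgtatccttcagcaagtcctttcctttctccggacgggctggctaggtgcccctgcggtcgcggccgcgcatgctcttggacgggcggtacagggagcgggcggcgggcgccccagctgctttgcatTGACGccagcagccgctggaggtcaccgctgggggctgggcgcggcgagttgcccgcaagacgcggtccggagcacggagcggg
Prkacb chr3:146812947-146813196: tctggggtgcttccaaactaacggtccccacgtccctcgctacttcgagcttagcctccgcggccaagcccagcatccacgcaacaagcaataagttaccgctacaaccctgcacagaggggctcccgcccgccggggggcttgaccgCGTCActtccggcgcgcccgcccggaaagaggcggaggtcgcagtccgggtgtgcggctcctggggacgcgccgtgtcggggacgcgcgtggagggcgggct
Prkar1a chr11:109650699-109650948: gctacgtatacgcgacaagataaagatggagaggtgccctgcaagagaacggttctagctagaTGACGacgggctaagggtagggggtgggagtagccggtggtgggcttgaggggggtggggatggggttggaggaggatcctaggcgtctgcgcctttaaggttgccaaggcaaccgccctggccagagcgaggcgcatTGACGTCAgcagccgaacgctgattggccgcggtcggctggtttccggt
The Adcy1 window held neither, those of Pde1a, Pde8a and Prkacb held the shorter form once each, and that of Prkar1a held the full element and a separate copy of the shorter form. Of the 12 members with a match in any window, Pde8a, Pde1a and Prkacb were called and the others were not, and a match is a description of letters, not of a bound site.

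Called genes had an adjusted p below 0.05 in edgeR's quasi-likelihood test together with a log2 ratio of mean CPM (counts scaled to library size), after adding 1, beyond 0.58 in size, and positive fold changes mean Dorsal over Ventral. Of the 38 tested members 5 (13.2%) were called dorsal-enriched, against a background of 15.7% of all tested genes and 11.4% of tested protein-coding genes. Another 5 (13.2%) were called ventral-enriched, against 9.85% and 10.3%. The 10 calls in all compare with 25.5% of all and 21.7% of protein-coding genes, and these shares lay near the background, so the number of calls does not set the family apart. Adcy10 and Prkg2 exceeded 1 CPM in at least 2 libraries of a single group, the one where each was higher, so the filter favoured a difference in them and their values are given as a description. Among the 36 other tested members 4 were called in each direction (11.1%), beside 10% dorsal and 9.14% ventral of the 13827 genes that met the filter in both groups. An adjusted p below 0.05, whatever the fold, was reached by 17 of the 38 tested members, a larger share than the 33.6% of all and 31.5% of protein-coding genes. The difference in this share was not tested. In 5 members every Dorsal library lay above every Ventral one (background 9.81% of all and 8.5% of protein-coding genes), and in 5 the reverse held (8.36% and 9.58%). The median log2 fold change of the tested members was −0.11, beside −0.0044 over all tested genes and −0.041 over tested protein-coding genes. Correction for GC content and exonic length also took out each library's mean log CPM deviation, so it rescaled the libraries as well. It moved the median of all genes to −0.16 and the calls from 2636 dorsal and 1655 ventral to 2097 and 2848. With it 5 members were dorsal-enriched and 8 ventral-enriched. The part of GC content and length on their own was not tested.

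By role, 8 of 9 tested adenylyl cyclases had a positive fold change, where 49.6% of all and 46.7% of protein-coding genes did. Of the 8, Adcy1, Adcy5, Adcy6 and Adcy10 were called dorsal-enriched, and no cyclase was called in the other direction. The background of dorsal-enriched calls was 15.7% of all and 11.4% of protein-coding genes. Adcy10 met the filter through the Dorsal libraries only, so the filter favoured its sign and its call. The difference between roles was not tested. Among 7 tested cAMP-selective PDEs, 1 was called dorsal-enriched and 0 ventral-enriched. Of the 7 dual-specificity PDEs, the 2 cGMP-selective PDEs, the 2 PKA catalytic subunits and the 2 PKGs tested, 2, 1, 1 and 1 were ventral-enriched by call and none dorsal-enriched. The background of ventral-enriched calls was 9.85% of all and 10.3% of protein-coding genes. The called PKG, Prkg2, met the filter through the Ventral libraries, which favoured its call. None of the 4 PKA regulatory subunits, the 3 soluble guanylyl cyclase subunits or the 2 non-catalytic matches was called, although 7 members, some of them in these groups, had an adjusted p below 0.05 with a difference under the fold threshold (Adcy2, Pde7a, Pde7b, Pde6d, Prkaca, Prkar1b and Gucy1a1).

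**Figure D1:**
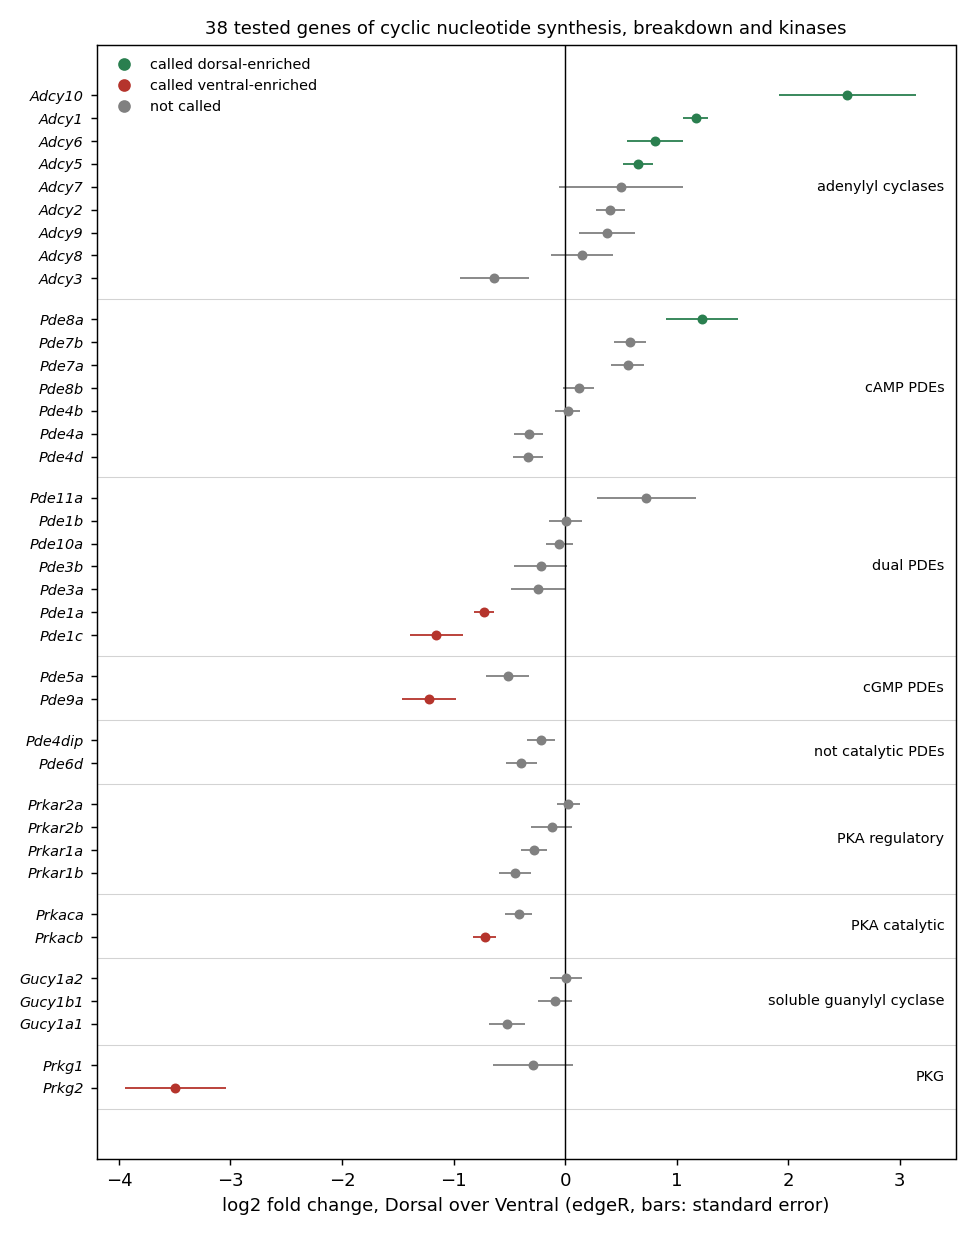
Log2 fold change of each of the 38 tested members, Dorsal over Ventral, by role, with bars for the standard error (5 libraries a group) and colour for the call. The cyclases lie right of 0 except Adcy3 at −0.63, and Prkg2 lies farthest to the left at −3.49.

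Adcy1, the calcium- and calmodulin-stimulated cyclase (ENSMUSG00000020431, chr11:7063489-7178506 on the plus strand), was the most abundant cyclase per exonic length in both regions. It measured 666, 696, 850.3, 732 and 769 CPM in the 5 Dorsal libraries and 344, 251, 341, 348 and 364 CPM in the 5 Ventral libraries. Every Dorsal library lay above every Ventral library, and Ventral replicate 2 was the lowest. The fitted level was 2.25-fold higher in Dorsal (log2 fold change 1.17 ± 0.11 (SE), adjusted p = 1.6e-05), and the call held in all 28 alternatives tried. Its level per kb of exon was 59.3 CPM in the Dorsal libraries and 26.3 CPM in the Ventral ones.

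Adcy5, a Gi- and calcium-inhibited cyclase best known from the striatum (ENSMUSG00000022840, chr16:35154877-35305738 on the plus strand), measured 41.8, 40.3, 39.5, 48.9 and 41.7 CPM in the Dorsal libraries and 25.4, 21.6, 27.3, 29.5 and 30.2 CPM in the Ventral ones. The groups did not overlap, with Dorsal replicate 4 the highest (log2 fold change 0.65 ± 0.13 (SE), adjusted p = 0.0025). Without Ventral replicate 2 the call was lost, because the log2 ratio of mean CPM after adding 1 came to 0.578, just under its threshold (fitted log2 fold change 0.59, adjusted p = 0.0042). The transcript Gm49702, which lies within Adcy5 on the same strand, averaged 0.312 CPM in the Dorsal libraries and 0.872 CPM in the Ventral ones and was not called. Striatal projection neuron markers summed to 65.5 to 103.6 CPM in the Dorsal libraries and 45.3 to 86.4 CPM in the Ventral ones, 2 of the 7 that passed the filter were called dorsal-enriched and 1 ventral-enriched, and Adora2a, which defines the indirect-pathway neurons, did not pass it and averaged 0.479 and 0.422 CPM. Their part in the Adcy5 difference was not tested.

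Adcy6, the close relative of Adcy5 with the same inhibition by Gi and calcium (ENSMUSG00000022994, chr15:98589973-98610076 on the minus strand), was present at 6.96, 4.61, 6.68, 6.79 and 6.13 CPM in the Dorsal libraries and 3.66, 3.08, 2.702, 4.68 and 3.35 CPM in the Ventral ones. Dorsal replicate 2 lay just under Ventral replicate 4, so the groups overlapped by that pair (log2 fold change 0.80 ± 0.25 (SE), adjusted p = 0.025). The call was lost without Dorsal replicate 4 (adjusted p = 0.067), Dorsal replicate 5 (adjusted p = 0.052) or Ventral replicate 5 (adjusted p = 0.063), and with no expression filter (adjusted p = 0.076). An antisense gene, Gm29331, shares 8.92% of the exonic bases of Adcy6 and had no counts.

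Adcy10, the bicarbonate-activated cyclase that is not bound to the membrane (ENSMUSG00000026567, chr1:165485183-165576774 on the plus strand), was close to the limit of detection. Its counts were 6, 20, 10, 21 and 8 in the Dorsal libraries and 5, 1, 1, 4 and 1 in the Ventral ones, 65 against 12 in all. All Dorsal libraries were above all Ventral libraries in CPM (0.564 to 1.299 against 0.0472 to 0.277). The ratio per count on genes was 6.09, with a 95% exact interval of 3.26 to 12.4 that covers counting error only (log2 fold change 2.53 ± 0.61 (SE), adjusted p = 0.0045). Dorsal replicates 2 and 4 alone exceeded 1 CPM, so the gene met the filter through the Dorsal libraries only, and without either of them it was not tested. With no expression filter the log2 fold change was 2.52 (adjusted p = 0.01).

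Adcy2, which G protein beta-gamma subunits stimulate, was the next cyclase after Adcy1 per exonic length. It measured 77.6, 61.1, 50.7, 56.9 and 52.96 CPM in the Dorsal libraries and 44.00, 44.3, 45.00, 43.1 and 48.2 CPM in the Ventral ones. The groups did not overlap, but the difference was under the fold threshold (log2 fold change 0.40 ± 0.13 (SE), adjusted p = 0.028). The other tested cyclases were not called: Adcy8, the second calmodulin-stimulated cyclase, at 7.59 ± 1.77 and 6.65 ± 2.46 CPM in the Dorsal and the Ventral libraries (SD, n = 5 each), Adcy9 at 13.3 ± 4.85 and 10.2 ± 2.12, Adcy7 at 1.96 ± 1.25 and 1.33 ± 0.846, and Adcy3, a cyclase of olfactory and other primary cilia, at 2.73 ± 0.957 and 4.32 ± 0.838. Adcy3 shares 22.1% of its exonic bases with Cenpo, so its value is uncertain. Adcy4 was not tested, with 0 to 3 counts in each library.

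Pde8a, a PDE of high affinity for cAMP (ENSMUSG00000025584, chr7:81213596-81334533 on the plus strand), was the one PDE called dorsal-enriched. It measured 20.8, 5.13, 17.2, 21.02 and 19.3 CPM in the Dorsal libraries and 8.54, 5.19, 5.74, 6.77 and 7.88 CPM in the Ventral ones. Dorsal replicate 2 lay just under the Ventral range and the other 4 Dorsal libraries lay above it. The fitted level was 2.34-fold higher in Dorsal (log2 fold change 1.23 ± 0.32 (SE), adjusted p = 0.01), and without Dorsal replicate 2 the log2 fold change was 1.48 (adjusted p = 1.9e-04). Its relative Pde8b measured 52.7, 33.9, 53.8, 49.9 and 50.7 CPM in the Dorsal libraries and 44.7, 40.5, 39.01, 46.5 and 48.6 CPM in the Ventral ones, where the ranges overlapped and Dorsal replicate 2 was again the lowest (log2 fold change 0.12 ± 0.14 (SE), adjusted p = 0.53).

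Pde7a, likewise selective for cAMP, measured 72.4, 53.99, 72.03, 86.2 and 84.4 CPM in the Dorsal libraries and 60.98, 42.2, 54.97, 45.4 and 46.1 CPM in the Ventral ones. Dorsal replicate 2 fell below Ventral replicates 1 and 3, and the difference was under the fold threshold (log2 fold change 0.56 ± 0.15 (SE), adjusted p = 0.012). Without Dorsal replicate 2 Pde7a was called dorsal-enriched (log2 fold change 0.66, adjusted p = 0.003), and it was also called without Ventral replicate 1 (0.65) or Ventral replicate 3 (0.59). Its homologue Pde7b ranged from 23.1 to 30.1 CPM in the Dorsal libraries and from 16.2 to 21.4 CPM in the Ventral ones with no overlap (log2 fold change 0.58 ± 0.14 (SE), adjusted p = 0.0073). It missed the call because its log2 ratio of mean CPM after adding 1 was 0.565. It was called in 10 of 28 alternatives, among them the fitted fold change in place of that ratio, DESeq2's size factors, upper-quartile factors, total counts, a stricter expression filter and protein-coding genes alone, and when Dorsal replicate 1, Ventral replicate 1 or Ventral replicate 4 was left out (log2 fold changes 0.64, 0.64 and 0.61).

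The PDE4 enzymes, the targets of rolipram, showed no call. Pde4a, the most abundant of them per exonic length, measured 76.2, 79.2, 98.95, 94.1 and 89.7 CPM in the Dorsal libraries and 119, 99.7, 83.2, 124 and 122 CPM in the Ventral ones, with overlapping ranges (log2 fold change −0.33 ± 0.13 (SE), adjusted p = 0.065). Pde4b averaged 72.3 ± 3.53 and 71.1 ± 8.66 CPM (log2 fold change 0.0232 ± 0.11 (SE), adjusted p = 0.89) and Pde4d 50.01 ± 7.58 and 63.1 ± 6.86 CPM (log2 fold change −0.33 ± 0.13 (SE), adjusted p = 0.068). Pde4c was not tested, with 0, 2, 1, 0 and 0 counts in the Dorsal libraries and 4, 1, 4, 6 and 13 counts in the Ventral ones.

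Pde1a, a calcium- and calmodulin-activated PDE that hydrolyses both nucleotides (ENSMUSG00000059173, chr2:79834453-80129458 on the minus strand), was the most abundant tested PDE per exonic length in both regions. It measured 376, 286, 326, 307 and 311 CPM in the Dorsal libraries and 548, 540.5, 570.1, 491 and 509 CPM in the Ventral ones. The highest Dorsal library lay well below the lowest Ventral one. Fitted Ventral levels were 1.66-fold higher (log2 fold change −0.73 ± 0.0927 (SE), adjusted p = 1.3e-04), and the call held in all 28 alternatives.

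Pde1c, activated in the same way (ENSMUSG00000004347, chr6:56069804-56569103 on the minus strand), measured 9.22, 21.3, 11.7, 8.35 and 8.72 CPM in the Dorsal libraries and 22.1, 26.9, 32.9, 27.6 and 25.5 CPM in the Ventral ones. Dorsal replicate 2 lay close under the lowest Ventral library and far above the other 4 Dorsal libraries. The fitted difference was 2.22-fold (log2 fold change −1.15 ± 0.24 (SE), adjusted p = 0.0028), was called in all 28 alternatives, and widened to a log2 fold change of −1.49 without Dorsal replicate 2. The third calmodulin-activated enzyme, Pde1b, was not called, with 32.2, 26.6, 35.4, 34.4 and 32.1 CPM in the Dorsal libraries and 23.5, 38.1, 32.7, 31.7 and 35.3 CPM in the Ventral ones (log2 fold change 0.00363 ± 0.15 (SE), adjusted p = 0.99).

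Pde10a, a dual PDE that is abundant in striatal projection neurons, measured 72.2, 108, 93.6, 78.4 and 85.7 CPM in the Dorsal libraries and 80.1, 92.9, 97.4, 89.96 and 94.9 CPM in the Ventral ones, and its ranges overlapped (log2 fold change −0.0514 ± 0.12 (SE), adjusted p = 0.77). Of the other dual PDEs, the cGMP-inhibited Pde3a averaged 25.1 ± 9.99 and 29.5 ± 7.04 CPM and Pde3b 13.7 ± 4.77 and 16.2 ± 4.19 CPM. Pde11a was the most variable of them in Dorsal libraries, where it ran from 1.95 to 29.5 CPM with Dorsal replicate 2 lowest, against 7.66 to 13.8 CPM in the Ventral ones (log2 fold change 0.73 ± 0.44 (SE), adjusted p = 0.22). Without Dorsal replicate 2 it was called dorsal-enriched (log2 fold change 1.04, adjusted p = 0.016). Pde2a, the cGMP-stimulated PDE, had 1 to 16 counts a library and was not tested. Another annotated gene, Gm45837, shares 64.3% of its exonic bases, and HTSeq counts no read that falls on both, so the low value of Pde2a is uncertain.

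Pde9a, which has a high affinity for cGMP (ENSMUSG00000041119, chr17:31386210-31476310 on the plus strand), measured 4.99, 3.31, 3.27, 4.68 and 3.14 CPM in the Dorsal libraries and 9.38, 7.13, 9.203, 7.47 and 10.9 CPM in the Ventral ones. All Ventral libraries lay above all Dorsal libraries (fitted 2.33-fold; log2 fold change −1.22 ± 0.24 (SE), adjusted p = 0.0023). Antisense genes share 8.34% of its exonic bases. Pde5a, the cGMP PDE that sildenafil inhibits, measured 36.3, 20.5, 19.1, 20.4 and 18.7 CPM in the Dorsal libraries and 27.1, 40.9, 32.3, 30.5 and 31.6 CPM in the Ventral ones. Its groups overlapped through Dorsal replicate 1, far above the other Dorsal libraries, and the test missed the threshold (log2 fold change −0.51 ± 0.19 (SE), adjusted p = 0.051). Without that library it was called ventral-enriched (log2 fold change −0.70, adjusted p = 0.0036). The photoreceptor PDEs Pde6a and Pde6b had at most 7 counts in any library and Pde6c at most 6 except for 43 in Ventral replicate 2, and none was tested.

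The non-catalytic matches were not called. Pde4dip measured 105, 117, 99.4, 109.7 and 106 CPM in the Dorsal libraries and 96.3, 119.6, 150.3, 119.8 and 140.0 CPM in the Ventral ones, with overlap (log2 fold change −0.22 ± 0.12 (SE), adjusted p = 0.18). Pde6d measured 19.2, 27.2, 25.8, 22.2 and 22.00 CPM in the Dorsal libraries and 32.2, 33.3, 26.1, 30.9 and 31.3 CPM in the Ventral ones, also with overlap and under the fold threshold (log2 fold change −0.40 ± 0.14 (SE), adjusted p = 0.041).

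**Figure D2:**
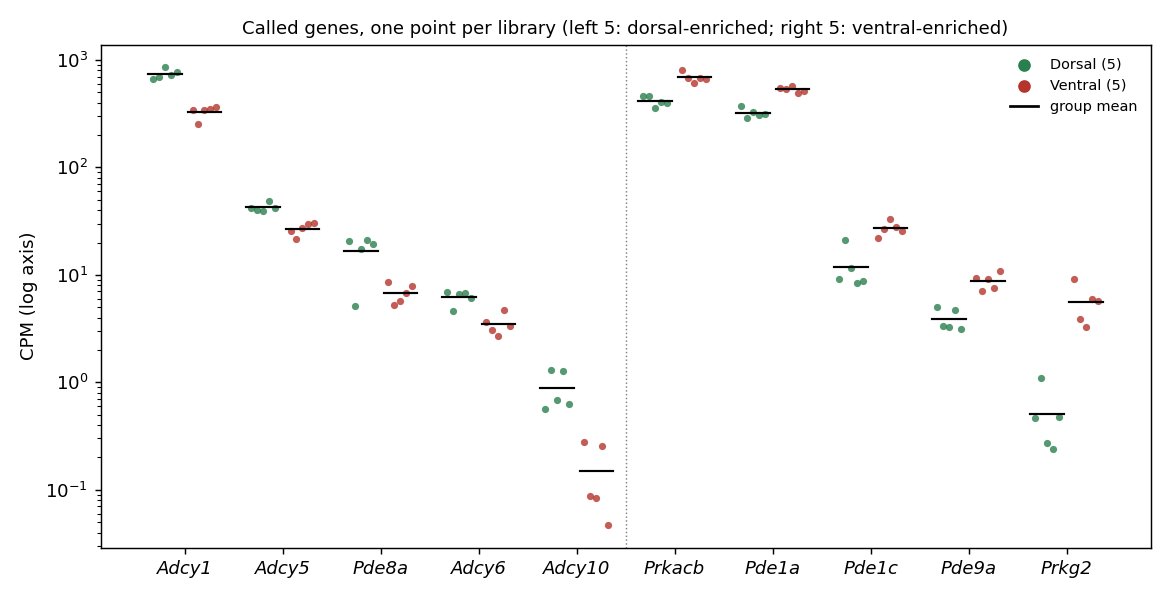
CPM on a log axis of the 10 called members, one point for each of the 5 Dorsal and 5 Ventral libraries, with a line at the group mean. The groups are apart for 8 of the 10 genes, and overlap for Pde8a and Adcy6 through Dorsal replicate 2.

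Prkacb, the beta catalytic subunit of PKA (ENSMUSG00000005034, chr3:146729574-146812990 on the minus strand), measured 461, 464, 353, 409 and 397 CPM in the Dorsal libraries and 803, 682, 614, 674 and 662 CPM in the Ventral ones. The groups did not overlap, and fitted Ventral levels were 1.65-fold higher (log2 fold change −0.72 ± 0.10 (SE), adjusted p = 2.5e-04). Prkaca, the alpha catalytic subunit, measured 200.5, 167, 171, 179 and 168 CPM in the Dorsal libraries and 246, 247, 171, 253 and 262 CPM in the Ventral ones. Ventral replicate 3 fell within the Dorsal range while the other Ventral libraries lay above it, and the difference was under the fold threshold (log2 fold change −0.42 ± 0.12 (SE), adjusted p = 0.016). Prkacb made up a mean of 39.97% (37.0 to 44.0%) of the catalytic subunits' summed level per kb in the Dorsal libraries. In the Ventral libraries it made up 45.4% (41.7 to 50.4%), so the ranges overlapped.

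Of the regulatory subunits, Prkar1a, the type I alpha subunit, was the most abundant tested member per exonic length, at 214 CPM per kb in the Dorsal libraries and 259 CPM per kb in the Ventral ones. It measured 1106, 779.8, 858, 961 and 908 CPM in the Dorsal libraries and 1316, 1275, 923, 1049 and 1039.6 CPM in the Ventral ones, with overlap (log2 fold change −0.28 ± 0.12 (SE), adjusted p = 0.076). Prkar1b, the type I subunit found mainly in neurons, measured 167, 232, 234, 224 and 221 CPM in the Dorsal libraries and 306, 365, 198, 307 and 297 CPM in the Ventral ones. Ventral replicate 3 was the single Ventral library inside the Dorsal range, and the difference was under the fold threshold (log2 fold change −0.45 ± 0.14 (SE), adjusted p = 0.029). The type II subunit Prkar2a measured 146, 108, 136, 142 and 125 CPM in the Dorsal libraries and 136, 129, 138, 127 and 115 CPM in the Ventral ones (log2 fold change 0.0299 ± 0.11 (SE), adjusted p = 0.85), and Prkar2b averaged 40.4 ± 9.795 and 43.8 ± 8.42 CPM, both with overlap. Prkar1a held a like share of the regulatory sum in both regions, 70.5% and 70.3%.

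On the cGMP side, Prkg2, the membrane-bound PKG (ENSMUSG00000029334, chr5:98929773-99037351 on the minus strand), had the largest fold difference among the tested members. It measured 0.4704, 1.104, 0.273, 0.2402 and 0.471 CPM in the Dorsal libraries and 9.15, 3.87, 3.29, 5.95 and 5.76 CPM in the Ventral ones, from 36 and 464 counts in all. Each Ventral library lay above each Dorsal library, and Dorsal replicate 2 was the highest Dorsal one. The fitted difference was 11.3-fold (log2 fold change −3.49 ± 0.46 (SE), adjusted p = 6.4e-05). Only 1 Dorsal library exceeded 1 CPM, so Prkg2 met the filter through the Ventral libraries, and with no expression filter the log2 fold change was −3.49 (adjusted p = 1.4e-07). Prkg1, the other PKG, measured 18.5, 19.6, 30.7, 24.6 and 32.8 CPM in the Dorsal libraries and 17.1, 10.5, 64.3, 26.3 and 37.6 CPM in the Ventral ones, and Ventral replicates 3 and 5 stood above and Ventral replicates 1 and 2 below every Dorsal library (log2 fold change −0.29 ± 0.36 (SE), adjusted p = 0.56).

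The soluble guanylyl cyclase subunits were not called. Gucy1a1 measured 88.5, 89.5, 78.4, 76.99 and 78.8 CPM in the Dorsal libraries and 149, 157, 92.7, 105 and 88.05 CPM in the Ventral ones. Ventral replicates 1 and 2 were well above the rest and Ventral replicate 5 was within the Dorsal range (log2 fold change −0.52 ± 0.16 (SE), adjusted p = 0.025), and the gene was called ventral-enriched without Ventral replicate 3 (−0.59) or Ventral replicate 5 (−0.61). Its neighbour Gucy1b1, the partner beta subunit 17.7 kb away on chromosome 3, measured 95.4, 78.5, 51.7, 67.5 and 60.03 CPM in the Dorsal libraries and 84.2, 72.6, 72.95, 70.9 and 72.9 CPM in the Ventral ones, with overlap (log2 fold change −0.0906 ± 0.15 (SE), adjusted p = 0.67). Gucy1a2, the second alpha subunit, measured 43.2, 44.7, 35.1, 33.9 and 35.04 CPM in the Dorsal libraries and 30.96, 47.5, 40.1, 34.6 and 38.7 CPM in the Ventral ones, also with overlap (log2 fold change 0.0101 ± 0.15 (SE), adjusted p = 0.97). Under the GC content and length correction, which also rescaled the libraries, Gucy1a1 and Gucy1a2 were called ventral-enriched (−0.72 and −0.76, adjusted p = 0.0077 and 0.0032), and so was Pde5a (−0.66, adjusted p = 0.016). Gucy1b2 had at most 5 counts in a library and was not tested.

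To weigh genes against each other, CPM was divided by exonic length and summed by role, as a description with no test. Summed adenylyl cyclases ran from 80.6 to 92.2 CPM per kb in the Dorsal libraries and from 37.2 to 49.2 CPM per kb in the Ventral ones. Dorsal sums were all above Ventral sums, and Adcy1 made up 69.9% of the sum in the Dorsal libraries and 58.4% in the Ventral ones. With Adcy1 left out, the remaining cyclases still summed to 24.2 to 28.00 against 17.1 to 20.2 CPM per kb, with no overlap.

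Catalytic PDEs summed the other way, to 107 to 137 CPM per kb in the Dorsal libraries and 151 to 162 in the Ventral ones, where again the groups did not overlap. Pde1a made up 43.2% and 55.8% of that sum. With Pde1a left out the PDE sums were 70.2 ± 6.39 and 70.1 ± 1.899 CPM per kb (SD, n = 5 each), with overlap. The ratio of the cyclase sum to the PDE sum was 0.594 to 0.757 in the Dorsal libraries and 0.232 to 0.313 in the Ventral ones. This ratio is taken within a library, so no scaling of libraries alters it. Pde2a is counted in the ratio, the PDE sums and the Pde1a shares at its uncertain low value.

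PKA catalytic subunits summed to 109 to 133 CPM per kb in the Dorsal libraries and 139 to 190.4 in the Ventral ones, without overlap. The regulatory sums overlapped, at 265 to 336 and 298 to 427 CPM per kb. The ratio of regulatory to catalytic sums was 2.55 ± 0.202 in the Dorsal libraries and 2.13 ± 0.192 in the Ventral ones (SD, n = 5 each), and its ranges overlapped. Soluble guanylyl cyclase subunits summed to 29.7 to 43.5 and 37.1 to 48.4 CPM per kb, again with overlap.

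**Figure D3:**
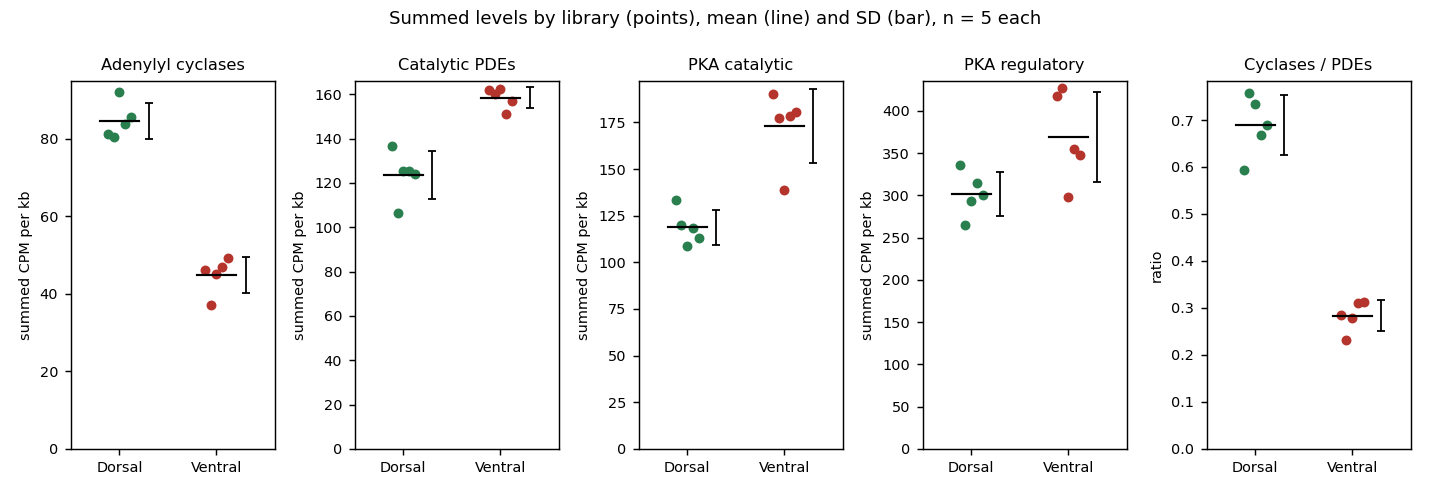
Summed CPM per kb of exon of the adenylyl cyclases, catalytic PDEs, PKA catalytic and PKA regulatory subunits, and the ratio of cyclases to PDEs, with one point per library, a line at the mean and a bar for the SD (n = 5 each). The cyclase sums of the Dorsal libraries, 80.6 to 92.2, lie above those of the Ventral libraries, 37.2 to 49.2, and the PDE and PKA catalytic sums lie the other way.

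The rest of the pathway was described from a list of 50 other genes: G protein alpha subunits, nitric oxide synthases and receptor guanylyl cyclases, other effectors of cyclic nucleotides, PKA inhibitors, A-kinase anchoring proteins, the CREB family, and PKA-regulated phosphatase inhibitors. Of 37 tested, 4 (Npr2, Bves, Akap9 and Akap3) were called dorsal-enriched and 2 (Nos1 and Crem) ventral-enriched. The background was 15.7% and 9.85% of all tested genes and 11.4% and 10.3% of protein-coding ones. Akap3 met the filter through Dorsal libraries only. Among the 36 others 3 (8.33%) and 2 (5.56%) were called, beside 9.4% and 9.46% of protein-coding genes that met the filter in both groups. The number of calls does not set the list apart. None of the 7 G protein alpha subunits was called. Gnas, the stimulatory subunit, was at 64.4 ± 13.04 and 87.7 ± 25.4 CPM (log2 fold change −0.46 ± 0.19 (SE), adjusted p = 0.072), and Gnal, its striatal and olfactory relative, at 394 ± 63.2 and 313 ± 26.6 CPM (log2 fold change 0.33 ± 0.11 (SE), adjusted p = 0.036). Gnas shares 21.96% of its exonic bases with Gm20721 and Nespas, so its value is uncertain.

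Nos1, the neuronal nitric oxide synthase, measured 33.02, 40.9, 37.8, 32.8 and 36.8 CPM in the Dorsal libraries and 69.02, 78.7, 60.7, 70.7 and 67.7 CPM in the Ventral ones. Its groups did not overlap (fitted 1.91-fold; log2 fold change −0.93 ± 0.12 (SE), adjusted p = 1.2e-04), and the call held in all 28 alternatives. Nos1 is also known from hippocampal interneurons. Of the interneuron markers, Sst averaged 454 ± 16.2 CPM in the Dorsal libraries and 715 ± 133 CPM in the Ventral ones and was called ventral-enriched. Npy averaged 80.8 ± 8.02 and 106.7 ± 18.1 CPM, with overlap, and was not called. The part of interneurons in the Nos1 difference was not tested. Npr2, the receptor guanylyl cyclase for C-type natriuretic peptide, measured 6.49, 4.74, 8.25, 6.67 and 7.15 CPM in the Dorsal libraries and 5.33, 1.497, 2.62, 3.48 and 4.67 CPM in the Ventral ones, with overlap (log2 fold change 0.81 ± 0.30 (SE), adjusted p = 0.047). Its call was lost when any one library other than Dorsal replicate 2 or Ventral replicate 1 was left out, with adjusted p = 0.057 to 0.10.

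Bves, which encodes a cAMP-binding Popeye protein, measured 3.76, 3.31, 8.38, 3.904 and 7.23 CPM in the Dorsal libraries and 1.33, 3.08, 2.702, 0.949 and 1.61 CPM in the Ventral ones, without overlap (log2 fold change 1.56 ± 0.40 (SE), adjusted p = 0.01). With the share of reads outside genes as a covariate its log2 fold change was 0.36 (adjusted p = 0.8). Akap9, a large anchoring protein of the centrosome and Golgi, measured 202, 208, 201, 193 and 194 CPM in the Dorsal libraries and 139, 121, 111, 119.9 and 117 CPM in the Ventral ones, also without overlap (log2 fold change 0.71 ± 0.0916 (SE), adjusted p = 1.4e-04). Its call was lost under the GC content and length correction. Akap3, an anchoring protein of sperm, had 79, 3, 0, 73 and 21 counts in the Dorsal libraries and 0, 7, 0, 0 and 2 counts in the Ventral ones, so Dorsal replicates 1, 4 and 5 carried its difference and the other 2 overlapped the Ventral libraries. It met the filter through those 3 Dorsal libraries only, and its values are a description. The ratio per count on genes was 21.99 (95% exact interval 11.3 to 48.9, counting error only), and the fitted log2 fold change of 4.36 ± 1.24 (SE; edgeR adjusted p = 0.014) ran from 3.73 without Dorsal replicate 1 to 6.05 without Ventral replicate 2, and was 9.61 with that covariate.

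Crem, a CREB-family gene whose short product represses transcription, measured 22.3, 30.9, 30.2, 26.00 and 29.1 CPM in the Dorsal libraries and 31.7, 32.5, 69.9, 39.03 and 39.1 CPM in the Ventral ones. The groups lay apart by a small gap and Ventral replicate 3 was far above the others (log2 fold change −0.59 ± 0.21 (SE), adjusted p = 0.041). Leaving that library out gave a log2 fold change of −0.36 and ended the call, which was also lost without Dorsal replicate 1, 3, 4 or 5 or Ventral replicate 4 or 5 (adjusted p = 0.059 to 0.091). Creb1, the gene of CREB itself, was at 161 ± 19.5 and 148 ± 25.9 CPM (log2 fold change 0.12 ± 0.13 (SE), adjusted p = 0.51). None of the PKA inhibitors Pkia, Pkib and Pkig and the PKA-related kinase Prkx was called, and Pkia was at 441 ± 32.9 and 437 ± 73.9 CPM.

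The spread between libraries of a group differed widely among members. The standard deviation was 4.89% of the mean for Pde4b and 68.1% for Prkg2 in Dorsal libraries, and 4.37% for Adcy2 and 71.1% for Adcy10 in the Ventral ones, which were the lowest and highest of each group. Adcy1 and Pde1a stayed at 9.63% and 10.5% in the Dorsal libraries and at 13.6% and 5.93% in the Ventral ones. Tested members had a median span of 122 kb on the genome, against 26.6 kb for tested protein-coding genes, and the shares of reads outside genes given above differ between the groups. With that share as a covariate 2 members were called in each direction, Adcy1 (0.96, adjusted p = 0.013) and Pde11a (2.46, adjusted p = 0.044) dorsal-enriched and Pde1a (−0.66, adjusted p = 0.037) and Pde1c (−1.95, adjusted p = 0.02) ventral-enriched.

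**Figure D4:**
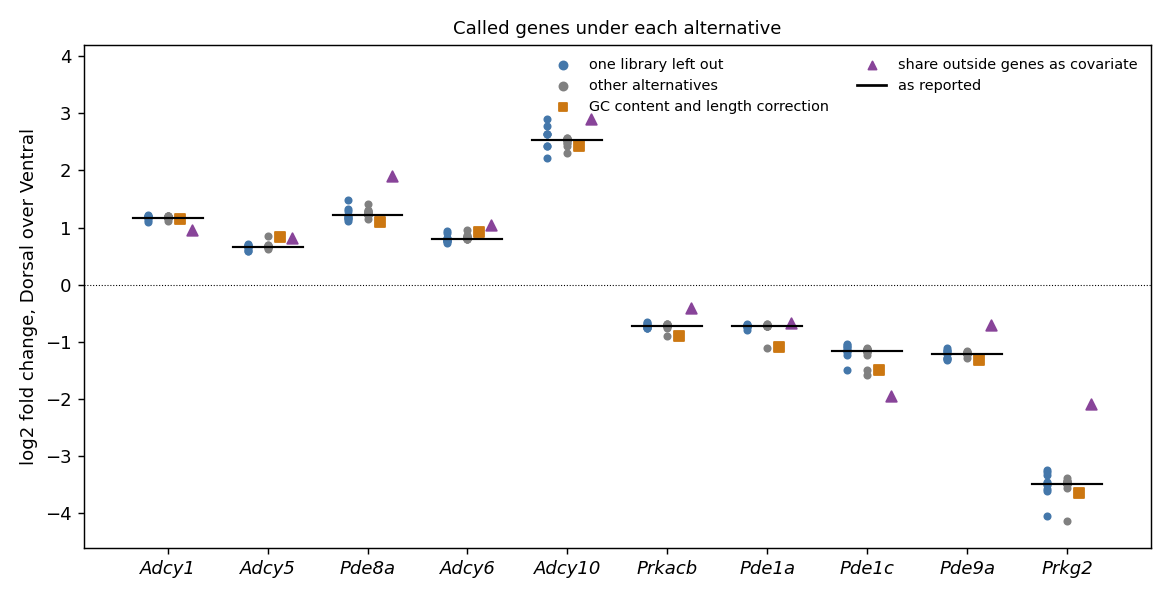
Log2 fold change, Dorsal over Ventral, of the 10 called members as reported (line) and under each alternative: each library left out, the correction for GC content and exonic length, the share of reads outside genes as a covariate, and the remaining ones. No alternative moved a called member across 0, and Prkg2 ranged most, from −4.13 to −2.09.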

How the data were processed

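Libraries were paired-end RNA-seq of TRAP eluates. Per the labels the authors aligned reads with STAR 2.5.2b to GRCm38 and counted them per gene with HTSeq 0.7.2. The deposited values are raw counts, with no normalization, of 54838 Ensembl identifiers, of which 54809 matched GENCODE M21, used here for symbols, positions and lengths. The strand setting and the annotation release were not given in the sources used here. Rows for reads on no gene or on several (5.92 to 8.66% ambiguous) stayed out of library sizes.

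Genes that exceeded 1 CPM in 2 or more of the libraries entered one fit of edgeR 4.0.16 in R 4.3.3 (TMM scaling, quasi-likelihood test, Benjamini-Hochberg adjustment over 16806 genes), after the study's methods. CPM uses TMM-scaled library sizes. Members not tested are given by their counts. Alternatives were other scalings, filters, DESeq2 1.42.0 and edgeR's likelihood-ratio test, GC content and length offsets (mgcv 1.9.3), the replicate block, a covariate, and each library left out. The offsets kept the intercept of each library's fit, so they rescaled the libraries too. 

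Every called member, the 3 tested members most abundant per exonic length in each role, every called pathway gene and expressed genes within a called member are named. The symbol pattern for the members and the lists were chosen with earlier results of these data known. No 2 libraries of a group differed by less than the sampling noise.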

Additional observations from a re-analysis of the deposited data

Results flagged for a closer look

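In 12 of 76 groups of 5 libraries (38 tested members in each region) the highest or lowest library stood apart from the other 4 by more than Dixon's 95% critical value of 0.71 for the gap divided by the range. Chance alone flags about 1 group in 20, or 3.8 of 76. Dorsal replicate 2 was the library that stood apart in 5 of them: Pde8a at 5.13 CPM against 17.2 in the nearest library, Pde8b at 33.9 CPM against 49.9 in the nearest library, Prkg2 at 1.104 CPM against 0.471 in the nearest library, Pde1c at 21.3 CPM against 11.7 in the nearest library and Pde3b at 22.2 CPM against 12.1 in the nearest library. It was lowest for Pde8a and Pde8b and highest for Prkg2, Pde1c and Pde3b.

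The others were Adcy1 in Ventral replicate 2 (lowest at 251 CPM, nearest 341 CPM), Adcy5 in Dorsal replicate 4 (highest at 48.9 CPM, nearest 41.8 CPM), Pde5a in Dorsal replicate 1 (highest at 36.3 CPM, nearest 20.5 CPM), Prkaca in Ventral replicate 3 (lowest at 171 CPM, nearest 246 CPM), Prkar1b in Dorsal replicate 1 (lowest at 167 CPM, nearest 221 CPM), Prkar2b in Ventral replicate 2 (highest at 58.7 CPM, nearest 41.1 CPM) and Gucy1b1 in Ventral replicate 1 (highest at 84.2 CPM, nearest 72.95 CPM). With Dorsal replicate 2 and Ventral replicate 2 left out together, a choice made after seeing the data, 6 members were called dorsal-enriched and 5 ventral-enriched.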

How the results depend on the processing

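The precision of these values is set by 5 libraries a group and by the depth, where 3 counts correspond to 0.146 to 0.269 CPM before TMM scaling. Adcy1, Pde1a, Pde1c and Nos1 kept their call in all 28 alternatives. No called member changed sign. The cause of the changes below was not tested.

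The 5 dorsal-enriched members became 8 without the fold threshold, 3 at an adjusted p below 0.01, 2 with the share of reads outside genes as a covariate, 7 with DESeq2's size factors or upper-quartile factors, 4 with no expression filter, and 3 to 7 with a library left out (3 without Dorsal replicate 4). The 5 ventral-enriched members became 9 without the fold threshold and 8 with the GC content and length correction, with or without the replicate block. They became 2 with the covariate, 6 with no expression filter, and 5 to 6 with a library left out. The member gained with no expression filter was not among the tested ones. The covariate ended the calls of Adcy5, Adcy6, Adcy10, Pde8a, Prkg2, Pde9a and Prkacb. With it the standard error grew from 0.11 to 0.205 for Adcy1 and from 0.61 to 1.06 for Adcy10. As the share and the region cannot be told apart by design, the calls lost with the covariate are a description. The 4 dorsal-enriched pathway genes became 7 without the fold threshold, 2 at the stricter adjusted p or with the covariate, and 3 to 7 with a library left out (7 without Dorsal replicate 2). The 2 ventral-enriched pathway genes became 1 with DESeq2's size factors, upper-quartile factors, total counts, a stricter expression filter, the stricter adjusted p or protein-coding genes alone, 4 with no expression filter, 6 with the GC content and length correction with or without the replicate block, and 1 to 4 with a library left out (1 without Dorsal replicate 3, 4 or 5 or Ventral replicate 3 or 4, 4 without Ventral replicate 1 or 2).

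Replicate numbers are shared by the groups, but the correlation of same-numbered libraries' deviations ran from −0.018 to 0.041 and averaged 0.019, against −0.0023 for differently numbered ones, and 1 of 5 Dorsal libraries correlated best with its own number. Deviations from a group's mean cancel within the group, which ties the average for different numbers to that for the same number. The former is therefore no separate baseline. No pairing by number was seen in these values. Whether same-numbered libraries came from the same mice was not stated in the sources used here, and these correlations cannot exclude it. With the number as a replicate block 5 members were called in each direction, with the same call for all 38, and the pathway genes called numbered 5 and 2. Over all genes the covariate gave 834 dorsal-enriched and 339 ventral-enriched calls, edgeR 3's dispersions 2217 and 1408, the stricter adjusted p 1498 and 897, and dropping the expression filter moved the median log2 fold change of all genes to 0.11.

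Members that were not called changed sign in some alternatives. With a library left out, log2 fold changes ran over Adcy8 −0.0117 to 0.35, Pde4b −0.0260 to 0.0829, Prkg1 −0.48 to 0.0871, Pde10a −0.14 to 0.00980, Pde1b −0.10 to 0.0695, Prkar2a −0.00672 to 0.0950, Prkar2b −0.19 to 0.0265, Gucy1a2 −0.0628 to 0.0896 and Gucy1b1 −0.21 to 0.0123. With the covariate they were −0.46 for Adcy9, −0.0642 for Pde1b, 0.31 for Pde3a, 0.17 for Prkar1a, 0.0653 for Prkar2b, −0.0201 for Gucy1a2 and 0.40 for Gucy1b1. The GC content and length correction gave −0.15 for Pde4b, −0.0863 for Prkar2a and −0.76 for Gucy1a2, and −0.15, −0.0877 and −0.76 with the replicate block added. Pde1b was at −0.00407 in edgeR's likelihood-ratio test and −0.00455 with edgeR 3's dispersions, and without both libraries numbered 2 Adcy8 was at −0.0109 and Prkar2b at 0.14. The summed levels were tried under other scalings and with each library left out, chosen after seeing the data: the log2 ratio of Dorsal to Ventral sums ran from 0.85 to 0.95 for cyclases, −0.40 to −0.31 for catalytic PDEs, −0.61 to −0.50 for PKA catalytic and −0.36 to −0.23 for PKA regulatory subunits.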
